A study of Mus musculus with 6 samples.

Results

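The nuclear genes for subunits of the mitochondrial oxidative phosphorylation complexes I to V were compared between Dnmt1 knockout and wild type regulatory T cells. Members were chosen by gene symbol from the platform's annotation: symbols starting Ndufa, Ndufb, Ndufc, Ndufs, Ndufv, Uqcr, Cox4 to Cox8 or Atp5, and Sdha to Sdhd, without the Ndufaf assembly factors. This gave 79 of the 12393 genes on the array. They comprised 34 genes of complex I, 4 of complex II, 8 of complex III, 16 of complex IV and 17 of complex V, measured by 150 probe sets. Where a gene had several probe sets, the one with the highest mean of the 6 arrays stood for it. Another 8 probe sets that carry a member's symbol together with other symbols were left out.

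The cells had been taken from mice by magnetic separation as CD4+CD25+ cells, a fraction enriched for regulatory T cells (Treg), the lineage defined by the transcription factor Foxp3. The knockout group (3 arrays) was labelled fl-DNMT1/Foxp3cre: the gene for the maintenance DNA methyltransferase was floxed and Cre recombinase was driven from Foxp3, so that deletion is directed to cells that express Foxp3. The control group (3 arrays) was labelled wild type. Both carried the strain label C57BL6, with no age or sex given, and the controls are not said to carry the Cre or the floxed allele, so effects of these cannot be told apart from the deletion. The samples are called independent, but not said to come from separate animals, so the p-values cover the spread between samples, which may be technical. The number of arrays limits the precision.

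The series design asks what loss of Dnmt1 does to Treg transcripts. Values are log2 expression per probe set after RMA, a method that subtracts background, normalises between arrays and combines probes, so 1 unit is a doubling. Array medians over all probe sets lay between 5.69 and 5.77. The brighter Dnmt1 probe set had 9.56, 9.43 and 9.50 in wild type replicates 1 to 3 and 8.67, 8.89 and 9.34 in the knockout (difference -0.53, limma adjusted p = 0.152). The sources used here do not say whether it lies in the deleted part. Of the markers of the separated lineage, Foxp3 had 9.47 to 9.51 on wild type arrays and 9.28, 8.82 and 8.43 on knockout arrays. Means of 11 Treg markers were 9.24 ± 0.049 (wild type arrays) and 8.84 ± 0.35 (knockout arrays, SD, n = 3). Of these 11, 9 had a negative difference. Nrp1 (-0.80), Ikzf2 (-0.77) and Il2ra (-0.64) were called lower (limma adjusted p 0.0298, 0.0403 and 0.0432). The 2 with a positive difference were Itgae (0.64, adjusted p = 0.131, groups not overlapping) and Gpr83 (0.14, adjusted p = 0.881). At an unadjusted p under 0.05 (limma), 8 were lower and 1 higher. Markers of other cell types also moved with the groups. For comparison, 46.3% of all genes had a positive difference and 17.9% a limma unadjusted p under 0.05. Of 15 neutrophil markers, all had a positive difference and 9 passed, and their mean lay between 5.89 and 6.25 in wild type, with 7.86, 9.81 and 8.51 for knockout replicates 1 to 3. Of 11 monocyte and macrophage markers, all had a positive difference and 1 passed (Cd14), with a mean of 5.19 to 5.58 in wild type and 5.95 to 6.43 in the knockout. Of 7 NK cell markers, Ncr1 was called higher and Klra8 lower, and the mean was 7.59 to 7.76 in wild type and 7.55 to 8.28 in the knockout. Of 6 erythroid markers, all were positive and 0 passed (limma, 2 at an unadjusted p under 0.05). The part of these cells in the members' values was not tested, beyond a fit with the neutrophil marker mean as a covariate.

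In oxidative phosphorylation, complexes I (NADH dehydrogenase) and II (succinate dehydrogenase) feed electrons to ubiquinone, complex III passes them to cytochrome c, and complex IV hands them to oxygen. The proton gradient that complexes I, III and IV build drives ATP synthesis by complex V. Treg are known to depend on this respiration more than effector T cells do, Foxp3 is known to favour it, and complex III is known to be needed for their suppressive function. All 5 complexes except complex II also hold subunits encoded by mitochondrial DNA, which are not members here.

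None of the 79 genes passed the test in either direction, and the great majority had levels on knockout and wild type arrays that lay close together. By limma on log2 values with Benjamini-Hochberg adjustment over all genes, 0 of 79 members had an adjusted p under 0.05, while 1.90% of all 12393 genes did. The lowest adjusted p of a member was 0.161. At an unadjusted p under 0.05 there were 6 members, 1 with a positive and 5 with a negative difference, against 17.9% of all genes in either direction. Tested as separate probe sets, 0 of the 150 passed, where 334 of all 20380 did. An unadjusted p under 0.05 (limma) was found for 9 of the 150, 8 lower and 1 higher. The share of all probe sets at that threshold was not counted.

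The intervals say how large a difference these arrays leave room for. For 75 of 79 members the 95% interval of the difference between knockout and wild type lay within 0.5 log2 units of 0, which is 1.41-fold, as it did for 77.6% of all genes. That bound was chosen after the values were seen. The 4 others were Ndufs5, Ndufa3, Cox7a2l and Cox6b2. The median difference of the members was -0.014, the same as that of all genes (-0.014), with 33 positive and 46 negative. The split moved with the scaling: 24 were positive with each array centred on its median and 52 with cyclic loess, an intensity-dependent normalisation. Members varied little between arrays: their median SD was 0.056 (wild type) and 0.089 (knockout), and that of all genes 0.094 and 0.12. Members were also brighter, with a wild type mean of 9.871 where all genes had 6.265, so neither intervals nor SDs are compared at matched level. Among 74 mitochondrial ribosomal protein genes, 91.9% of intervals lay within the bound, and the median SDs were 0.068 and 0.14. A smaller share of Treg in the separated cells and less RNA per Treg cannot be told apart in such bulk samples.

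**Figure D1:**
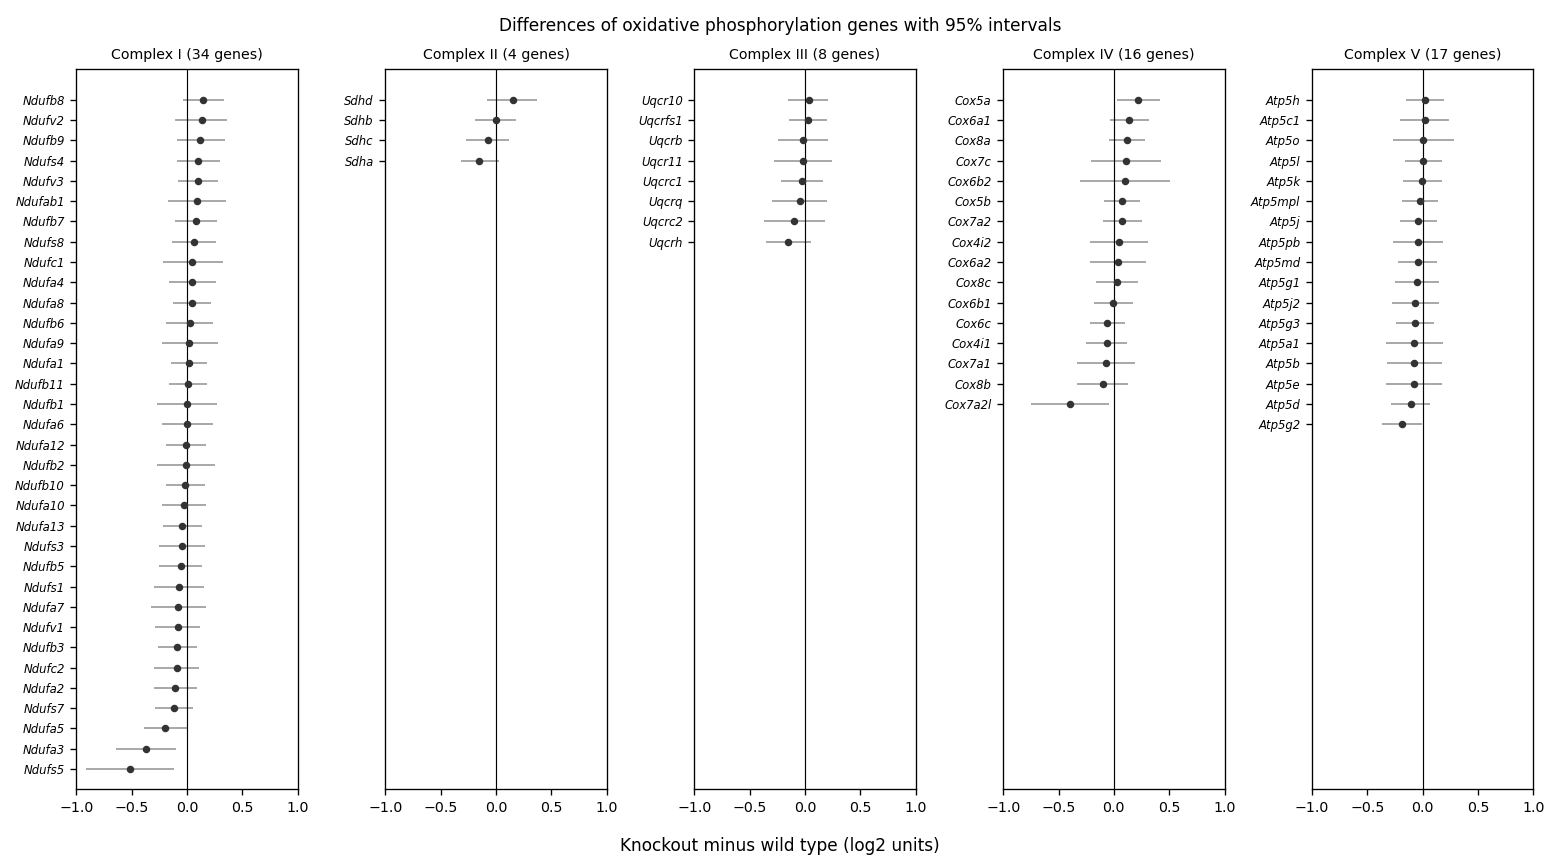
Difference of each of the 79 genes, knockout minus wild type in log2 units (x axis), in a panel for each complex; points are the estimates and bars the 95% limma intervals. Most bars cross 0, and the 6 that do not belong to Ndufs5, Ndufa3, Ndufa5, Cox7a2l, Cox5a and Atp5g2.

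Levels on knockout arrays did not overlap those on wild type arrays in 14 members. The knockout was below in 9, or 11.4% of members, where 14.0% of all genes were below. It was above in 5, or 6.33%, where 11.0% of all genes were above. Both shares lay under those of all genes.

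Complex I is the largest of the complexes and the main entry point for NADH. Its 34 genes had a median difference of -0.0054 (0.0050 with quantile normalisation and 0.044 with cyclic loess), with 16 positive and 18 negative. The gene with the lowest p among all members was Ndufa3, which encodes a small accessory subunit of the membrane arm. Its level was 11.53, 11.39 and 11.42 in wild type replicates 1 to 3 and 11.32, 11.01 and 10.91 in knockout replicates 1 to 3. The groups did not overlap, with knockout replicate 1 nearest to wild type, and the difference was -0.37 (SE 0.12, 95% interval -0.64 to -0.099, limma adjusted p = 0.161). In the fit with the neutrophil covariate it was -0.046 (SE 0.27). A second Ndufa3 probe set showed the same order of arrays. It had 10.89, 10.77 and 10.80 on wild type arrays and 10.75, 10.43 and 10.33 on knockout arrays, a difference of -0.32 (limma adjusted p = 0.235, taken over all probe sets).

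Ndufs5, another accessory subunit of the membrane arm, had the most negative difference of any member. Its values were 8.42, 8.31 and 8.23 on wild type arrays and 8.05, 7.96 and 7.40 on knockout arrays. All knockout arrays were lower, replicate 3 by far the most, and the difference was -0.52 (SE 0.17, 95% interval -0.91 to -0.12, limma adjusted p = 0.175). Without knockout replicate 3 it was -0.31. Ndufa5, a subunit of the matrix arm near the ubiquinone site, had 8.80, 8.75 and 8.79 against 8.64, 8.45 and 8.65. These did not overlap either, but the difference was smaller, at -0.20 (SE 0.082, limma adjusted p = 0.272), and in its other probe set knockout replicate 3 (8.32) was as high as wild type replicate 1 (8.32).

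The conserved catalytic core of complex I, which carries the flavin and the iron-sulfur clusters, was represented by 6 genes with a median difference of -0.058. They ran from -0.12 for Ndufs7, next to the ubiquinone site, to 0.13 for Ndufv2, a partner of the flavin-binding subunit. Other probe sets did not repeat these ends, with 0.014 for Ndufs7, and 0.00017 and 0.041 for Ndufv2. The flavin-binding subunit gene Ndufv1 had 9.42 ± 0.072 on wild type arrays and 9.34 ± 0.11 on knockout arrays (SD, n = 3). In both of its other probe sets all knockout arrays were below all wild type arrays. Their differences were -0.17 and -0.22 (limma adjusted p 0.352 and 0.278 over all probe sets). By structural module, the 9 genes of the electron input module had a median of -0.0077, the 4 of the ubiquinone module -0.081 and the 21 in neither module 0.012.

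At the other end of complex I, Ndufb8, a membrane arm subunit often used as a marker of assembled complex I, had 9.46, 9.34 and 9.43 on wild type arrays and 9.62, 9.49 and 9.55 on knockout arrays. All knockout values were above, by a mean of 0.14 (SE 0.078, 95% interval -0.038 to 0.33). Ndufa1 and Ndufa13, both membrane arm subunits, had differences of 0.017 and -0.042. Ndufb1, another, had 5.73 ± 0.20 and 5.73 ± 0.11 (SD, n = 3). Ndufs4, an accessory subunit of the input module whose loss causes mitochondrial disease, had probe sets that disagreed. The brightest had 8.77 ± 0.050 on wild type arrays and 8.87 ± 0.10 on knockout arrays. A dim one, singled out after its values were seen, had 5.11, 5.36 and 5.23 against 4.79, 4.66 and 4.84, a difference of -0.46 with the lowest adjusted p of any member probe set (limma, 0.063 over all probe sets).

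Complex II, which also belongs to the citric acid cycle and is wholly encoded in the nucleus, was represented by all of Sdha to Sdhd, with a median difference of -0.040, 1 positive and 3 negative (0.013 with cyclic loess). Sdha, the flavoprotein that oxidises succinate, had 9.83, 9.87 and 9.85 on wild type arrays and 9.76, 9.63 and 9.73 on knockout arrays. Its groups did not overlap, at a difference of -0.15 (SE 0.073, limma adjusted p = 0.345), but they did in its other probe set. Sdhd, a membrane anchor, had the opposite sign, with 9.32, 9.27 and 9.34 against 9.52, 9.27 and 9.56 (0.15, SE 0.096). The iron-sulfur subunit Sdhb had 10.31 ± 0.067 and 10.31 ± 0.075, and the anchor Sdhc 8.57 ± 0.088 and 8.49 ± 0.083 (SD, n = 3).

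Complex III had the narrowest range of differences, between -0.15 and 0.034 over its 8 genes, with a median of -0.025 (0.027 with cyclic loess), and none of its genes had groups that did not overlap. Uqcrh, the acidic hinge protein beside cytochrome c1, had 11.48, 11.49 and 11.52 on wild type arrays and 11.50, 11.26 and 11.30 on knockout arrays. Knockout replicate 1 lay within the wild type values and the other two below (difference -0.15, SE 0.087, limma adjusted p = 0.430). Uqcrc2, a core protein, had a single low array, knockout replicate 2 at 9.60, beside 10.04 and 9.91 in the other knockout arrays and 9.94 to 9.96 in wild type. The Rieske iron-sulfur protein gene Uqcrfs1 had 10.02 ± 0.048 and 10.05 ± 0.037, and the core protein gene Uqcrc1 10.83 ± 0.071 and 10.80 ± 0.088 (SD, n = 3). Uqcrb, a small subunit that binds ubiquinone, differed by -0.014, Uqcrq by -0.048 and Uqcr11 by -0.018.

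Complex IV, cytochrome c oxidase, held the highest difference of any member and one of the most negative. Its 16 genes had a median difference of 0.041, with 10 positive and 6 negative. Cox5a, a matrix-side subunit, had 11.66, 11.62 and 11.67 on wild type arrays and 11.84, 11.77 and 12.00 on knockout arrays. All knockout arrays were above (difference 0.22, SE 0.085, 95% interval 0.024 to 0.42, limma adjusted p = 0.233). Its other probe sets overlapped between groups and had differences of 0.078 and 0.049. Cox6a1, a regulatory subunit, had 12.89, 12.86 and 12.82 against 12.96, 12.95 and 13.08, and Cox8a, a small structural subunit, 9.96, 9.92 and 9.96 against 10.05, 10.05 and 10.10. Both were above wild type on every knockout array, by 0.14 (SE 0.076) and 0.12 (SE 0.070). The other Cox6a1 probe set repeated this, at 0.14, but the groups overlapped in the other Cox8a probe sets, at 0.09 and 0.10. Cox4i1, the regulatory subunit that binds ATP, had 11.90 ± 0.037 and 11.84 ± 0.093 (SD, n = 3). Ndufa4, named for complex I and counted there by its symbol, is now known as a complex IV subunit and differed by 0.047.

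Cox7a2l, a complex IV subunit paralogue that joins complexes III and IV into supercomplexes and for which C57BL/6 mice are known to carry a shortened allele, went the other way. It had 10.85, 10.88 and 10.78 on wild type arrays and 10.80, 10.24 and 10.28 on knockout arrays. Knockout replicate 1 lay among the wild type values and the other knockout arrays were lower by more than the whole wild type range. The difference was -0.40 (SE 0.15, 95% interval -0.75 to -0.047, limma adjusted p = 0.229). The other probe sets gave -0.38 and -0.39 (limma adjusted p 0.153 and 0.216 over all probe sets). In both of these, knockout replicate 1 was also below all wild type arrays. It had 10.62 against 10.75 to 10.76, and 10.24 against 10.26 to 10.38. With the neutrophil covariate the difference of the brightest probe set was 0.23 (SE 0.29). Foxp3 was also highest on knockout replicate 1 among the knockout arrays, and T cell markers averaged 10.89 there against 10.59 and 10.60 on replicates 2 and 3; their part in these values was not tested.

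Leaving out knockout replicate 1 was the single alternative under which members passed. Then Cox7a2l differed by -0.58 (SE 0.081, limma adjusted p = 0.0175) and Ndufa3 by -0.49 (SE 0.089, adjusted p = 0.0358), so that 2 of 79 members, or 2.53%, were called lower where 1.50% of all genes were.

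**Figure D2:**
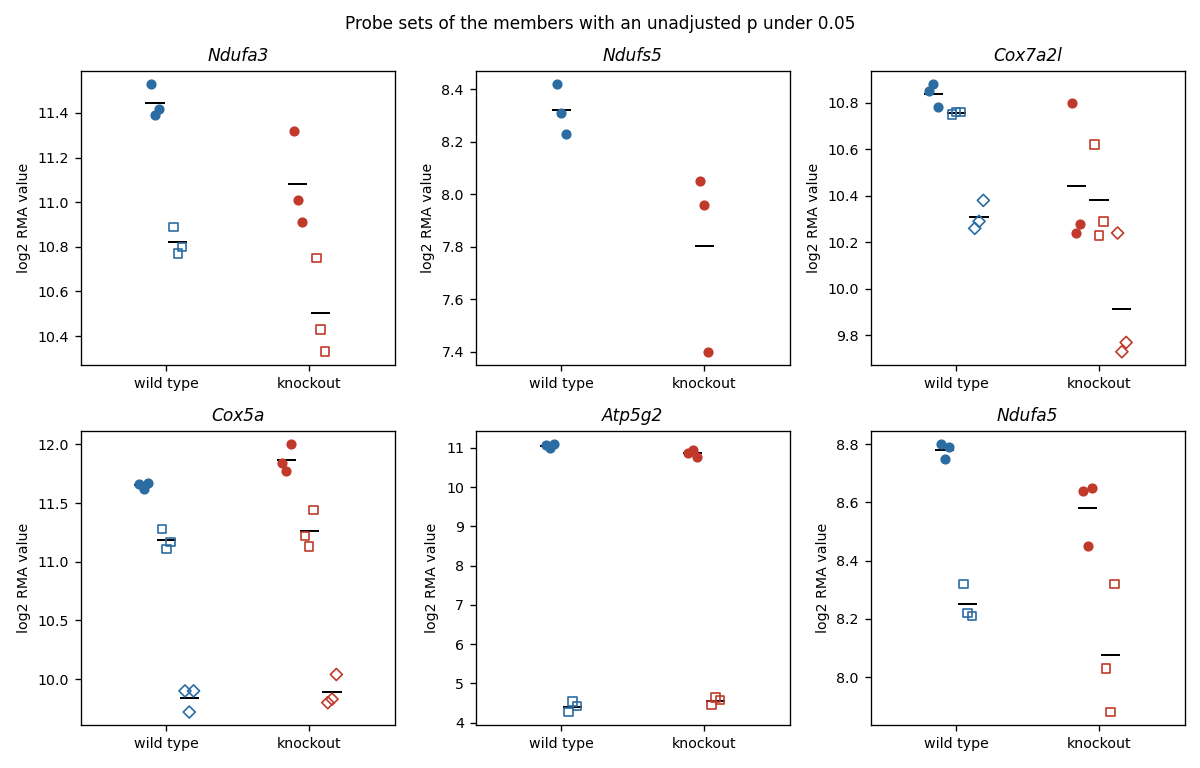
log2 RMA value (y axis) on each array for all probe sets of the 6 members with an unadjusted p under 0.05; blue is wild type, red knockout, filled circles the brightest probe set, open squares and diamonds the others, and lines the means of 3 arrays. In the 3 probe sets of Cox7a2l, knockout replicate 1 lies nearest to wild type and the other knockout arrays lower. The dimmer Atp5g2 probe set near 4.41 goes the other way from the bright one.

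Complex V, the ATP synthase, had a median difference of -0.046 (0.0070 with cyclic loess), near that of complex II, with 4 positive and 13 negative among 17 genes, all between -0.19 and 0.020. Atp5g2 encodes the proton-carrying c subunit of the membrane ring. It had 11.08, 10.99 and 11.09 on wild type arrays and 10.88, 10.94 and 10.77 on knockout arrays, which did not overlap (difference -0.19, SE 0.079, limma adjusted p = 0.270). Its second probe set, dim at 4.41 ± 0.13 in wild type, had 0.15. Atp5g1 and Atp5g3 are separate genes for the same mature c subunit. They had 9.47 ± 0.12 and 9.42 ± 0.025, and 12.35 ± 0.038 and 12.28 ± 0.052 (SD, n = 3). As the mean of the 3 genes, the c-ring had 11.01, 10.90 and 10.96 on wild type arrays and 10.86, 10.85 and 10.85 on knockout arrays.

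The catalytic F1 head, where ADP is phosphorylated, was represented by 5 genes with a median of -0.075. Atp5b, the catalytic beta subunit, had 11.23, 11.00 and 11.22 on wild type arrays and 11.16, 10.92 and 11.14 on knockout arrays. In both groups replicate 2 was the lowest array, and the difference of -0.075 (SE 0.10) lay within that spread. Atp5d, the delta subunit of the central stalk, had non-overlapping groups at a difference of -0.11 (SE 0.076, limma adjusted p = 0.504). Atp5h, a peripheral stalk subunit, differed by 0.020, and the small membrane subunit gene Atp5md by -0.046.

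Complex IV also has subunits with isoforms that are kept for other tissues: Cox6a2, Cox7a1 and Cox8b are known from heart and skeletal muscle, Cox4i2 from lung, and Cox6b2 and Cox8c from testis. None of the 6 passed. Cox6b2 had 4.61, 5.08 and 4.36 on wild type arrays and 4.83, 4.65 and 4.86 on knockout arrays, and Cox8c 6.13, 6.26 and 6.10 against 6.19, 6.25 and 6.13. In both the knockout values lay inside the wild type range. Cox7a1 had 3.39 ± 0.20 and 3.32 ± 0.049, Cox8b 4.42 ± 0.15 and 4.32 ± 0.073, Cox4i2 4.47 ± 0.21 and 4.52 ± 0.055, and Cox6a2 5.99 ± 0.20 and 6.02 ± 0.046 (SD, n = 3). The upper ends of the 95% intervals ran up to 0.51, for Cox6b2. RMA compresses differences of dim probe sets, and 4 of the 6 (Cox4i2, Cox6b2, Cox7a1 and Cox8b) were the members among the dimmest 40% of genes, the other 75 members lying above.

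**Figure D3:**
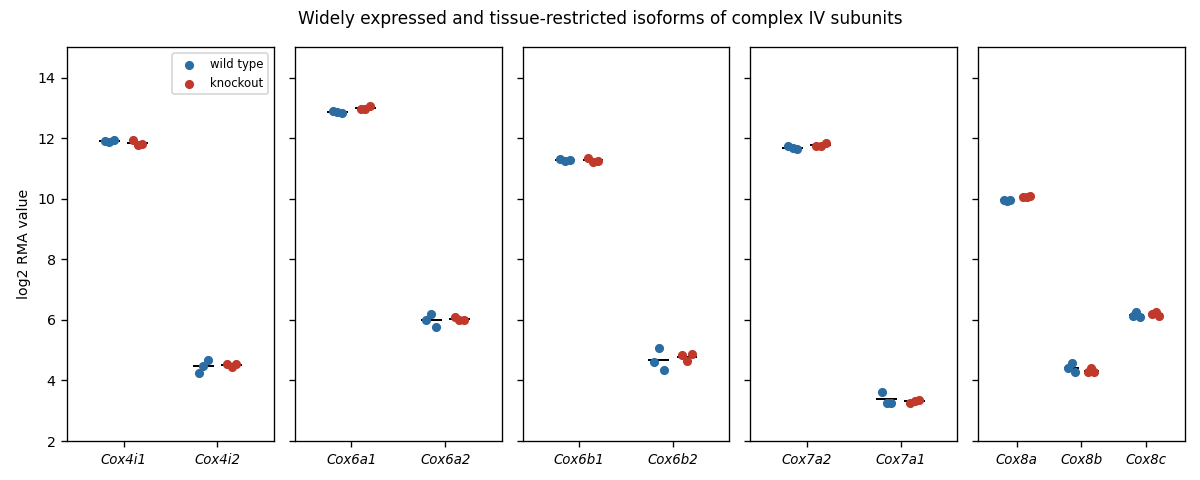
log2 RMA value (y axis) on each wild type (blue) and knockout (red) array for the widely expressed and the tissue-restricted isoforms of complex IV subunits, with lines at the means of 3 arrays. The group means of each restricted isoform differ by less than the SD of its wild type arrays, such as Cox7a1 at 3.39 and 3.32; levels of different genes come from different probes and are not compared.

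Promoters of some of these isoforms differ in CpG dinucleotides, the sites that Dnmt1 keeps methylated. RefSeq windows of GRCm38.p6, from 250 bases before to 50 after a gene's start, were matched for 65 of 79 members (70 windows). The member windows held a median of 19 CpG, where all 32851 windows of that length, whatever the kind of gene, had a median of 7, and 68 of the 70 member windows lay above 7. The 2 that did not were Cox8b with 2 and Cox7a1 with 7. Cox6b2 had 10, near Ndufc2 of complex I with 8, and the widely expressed Cox7a2 and Cox8a had 20 and 19. The restricted isoforms Cox4i2, Cox6a2 and Cox8c had no matched window. Methylation itself was not measured here. The 250 bases before the start of 2 such pairs are shown, with each CpG in capitals, because they set the widely expressed form beside the muscle form. They lie at chr9:79759854-79760103 (minus strand), chr7:30183921-30184170 (plus), chr19:7217617-7217866 (minus) and chr7:140900447-140900696 (minus).
Cox7a2: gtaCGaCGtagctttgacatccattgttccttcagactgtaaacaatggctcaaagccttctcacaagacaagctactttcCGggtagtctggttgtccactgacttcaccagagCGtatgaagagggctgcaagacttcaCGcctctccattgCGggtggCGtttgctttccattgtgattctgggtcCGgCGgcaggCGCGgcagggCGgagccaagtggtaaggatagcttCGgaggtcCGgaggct
Cox7a1: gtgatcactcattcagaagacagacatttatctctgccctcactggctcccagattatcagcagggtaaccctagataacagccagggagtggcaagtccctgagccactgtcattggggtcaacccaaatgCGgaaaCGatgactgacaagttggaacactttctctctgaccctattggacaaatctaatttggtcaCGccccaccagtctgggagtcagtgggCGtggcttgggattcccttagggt
Cox8a: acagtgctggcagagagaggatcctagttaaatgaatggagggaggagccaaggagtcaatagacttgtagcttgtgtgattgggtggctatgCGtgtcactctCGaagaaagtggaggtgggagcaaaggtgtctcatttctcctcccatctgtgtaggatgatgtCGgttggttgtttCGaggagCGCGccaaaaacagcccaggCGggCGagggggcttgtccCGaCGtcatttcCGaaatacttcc
Cox8b: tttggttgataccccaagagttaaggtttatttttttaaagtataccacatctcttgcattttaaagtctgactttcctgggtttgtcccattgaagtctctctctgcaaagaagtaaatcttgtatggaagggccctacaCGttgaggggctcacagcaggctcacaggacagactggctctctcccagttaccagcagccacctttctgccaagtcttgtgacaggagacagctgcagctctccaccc
Cox7a2 and Cox8a hold 14 and 11 CpG in the stretch shown, many of them near the gene's start, and Cox7a1 and Cox8b hold 4 and 1.

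Many oxidative phosphorylation genes are known targets of nuclear respiratory factor 1 (gene Nrf1), whose binding is known to be blocked by DNA methylation, and of ETS-family factors such as GABP. The NRF-1 core, which is GCGCA, any base, then GCGC, searched on both strands, was present in 14 of the 65 matched members and 21.4% of their windows, against 4.60% of all windows. The ETS core CCGGAAG, on both strands, was present in 17 members and 24.3% of windows, against 8.86% of all. Both cores contain CpG themselves, and member windows held a median of 19 CpG where all windows had 7. The shares are not compared at matched CpG content, so they do not show that either motif is favoured beyond it. A match is a description of the letters only. Each motif was counted whether or not it overlapped the other, and 4 members had both. Members with and without the NRF-1 core had median differences of -0.0038 and -0.0077, and with and without the ETS core of -0.0029 and -0.014. One match from each of complexes I, II, IV and V is shown in capitals, in members described above, at chr4:123718259-123718300, chr13:74350313-74350354, chr5:115349095-115349136 and chr15:102671064-102671105, all on the minus strand.
Ndufs5: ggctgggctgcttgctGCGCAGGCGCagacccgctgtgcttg
Sdha: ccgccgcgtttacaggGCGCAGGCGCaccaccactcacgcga
Cox6a1: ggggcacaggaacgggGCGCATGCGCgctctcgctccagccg
Atp5g2: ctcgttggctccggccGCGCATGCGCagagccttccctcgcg
Ndufs5 and Atp5g2, with negative differences of -0.52 and -0.19, and Cox6a1, with 0.14, all hold the core.

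The arrays of a group differed more in these genes than the groups did. On knockout replicates 1, 2 and 3 the mean of all 79 members was 9.92, 9.78 and 9.85, and on wild type replicates 1, 2 and 3 it was 9.90, 9.84 and 9.88. The knockout arrays thus held both the highest and the lowest mean, and the groups overlapped. Complex I had 9.87, 9.80 and 9.85 on wild type arrays and 9.90, 9.73 and 9.80 on knockout arrays, complex III 10.57, 10.50 and 10.56 against 10.59, 10.40 and 10.52, and complex V 10.85, 10.73 and 10.84 against 10.82, 10.70 and 10.76. Complexes II and IV overlapped as well.

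Knockout replicate 2 was the lowest knockout array in 56 of 79 members (70.9%), and in 36.3% of all genes. Wild type replicate 2 was the lowest wild type array in 52 members (65.8%), and in 33.1% of all genes. This was not particular to the members. Among 74 mitochondrial ribosomal protein genes, described below, the shares were 79.7% for knockout and 71.6% for wild type replicate 2. Over all related lists they ran from 47.1% to 88.9% and from 29.4% to 71.6%. Knockout replicate 2 also had the highest neutrophil marker mean (9.81), and 41 members (51.9%, against 19.9% of all genes) ordered the knockout arrays as replicate 1 above 3 above 2, the reverse of that mean. That order also held for 50% of the mitochondrial ribosomal protein genes and 66.7% of 9 T cell markers. In the other related lists it held for 0 to 41.2%. Wild type replicate 2 had the highest mean of 8 B cell markers, 8.999 beside 8.069 and 8.264. Their part was likewise not tested.

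With the neutrophil marker mean of each array as a covariate, which largely follows the groups, the median of each complex was positive. These medians were 0.20 for complex I, 0.17 for II, 0.21 for III, 0.15 for IV and 0.15 for V, with 63 of 79 members positive, and the median of all genes was 0.0035. Of the 6 members with an unadjusted p under 0.05 in the fit without it, Ndufa3 had -0.046, Ndufs5 -0.60 and Atp5g2 -0.28, and Ndufa5 (0.081), Cox7a2l (0.23) and Cox5a (0.38) were positive. None of the members passed in that fit (limma, 0 of 79, with 9 at an unadjusted p under 0.05), in which 15 genes were called in all.

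**Figure D4:**
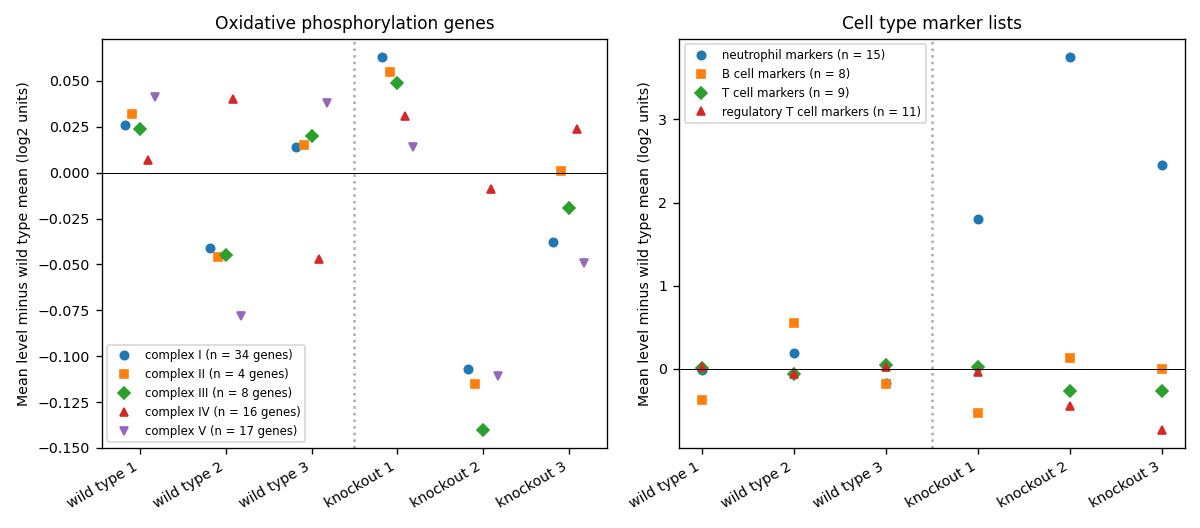
Left, mean log2 level of the genes of each complex on each array, minus its wild type mean; right, the same for 4 lists of cell type markers, on a wider axis. Each point is 1 array and 1 list. Complexes I, II, III and V are lowest on knockout replicate 2, where the neutrophil markers are highest, and low on wild type replicate 2, where the B cell markers are highest.

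The wider mitochondrial programme was described with lists from textbook knowledge, each by its counts beside 1.90% of all genes called. At an unadjusted p under 0.05 (limma) the share of all genes was 17.9%, and 46.3% of all genes had a positive difference. Of 34 assembly factors, which build the complexes, 0 passed (limma, 4 at an unadjusted p under 0.05), with 17 positive and 17 negative. Cox18, which inserts a complex IV core subunit into the membrane, came nearest, with 7.75, 7.83 and 7.70 on wild type arrays and 8.14, 8.05 and 8.10 on knockout arrays. All knockout arrays were above (difference 0.34, SE 0.074, limma adjusted p = 0.0744). Acad9, a complex I assembly factor, differed by -0.22 (adjusted p = 0.232).

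Of 74 mitochondrial ribosomal protein genes, whose products translate the mitochondrially encoded subunits, only Mrps5 passed. It was higher in the knockout, with 8.13, 7.92 and 7.99 against 7.46, 7.50 and 7.62 (difference 0.49, SE 0.088, limma adjusted p = 0.0432). Mrps5 did not pass with each array centred on its median (adjusted p = 0.0641), with the neutrophil covariate (0.311) or with 1 array left out, except knockout replicate 2 (0.0498). The list had 23 positive and 51 negative differences and a median of -0.033, with Mrpl52 at -0.26 (adjusted p = 0.142).

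Of 15 genes of mitochondrial quality control and dynamics only Pink1, the kinase that marks damaged mitochondria for removal, passed, as lower: 8.75, 8.74 and 8.57 on wild type arrays and 7.72, 8.01 and 7.24 on knockout arrays (difference -1.03, SE 0.18, limma adjusted p = 0.0410). The groups were wide apart, but Pink1 did not pass when any 1 wild type array was left out (limma adjusted p 0.145 to 0.165), with cyclic loess (0.051) or with the neutrophil covariate (0.315). The protease gene Lonp1 differed by -0.30 (adjusted p = 0.180). Among 17 regulators of mitochondrial biogenesis 0 passed (limma, 5 at an unadjusted p under 0.05, all negative). Those 5 were 29.4% of the list, where 9.37% of all genes were lower at that threshold. In this list 14 were negative, or 82.4% where 53.7% of all genes were, and the median was -0.14. Myc, a growth regulator that drives such genes, had 8.94 ± 0.080 and 8.58 ± 0.14, and the PGC-1-related coactivator gene Pprc1 7.91 ± 0.042 and 7.62 ± 0.11 (SD, n = 3).

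Of 18 genes of the citric acid cycle and pyruvate entry 0 passed (limma, 3 at an unadjusted p under 0.05). Idh3a, a subunit of isocitrate dehydrogenase, had 8.69, 8.51 and 8.60 against 8.95, 8.81 and 9.11 (0.36, adjusted p = 0.129), and Pdha1, a subunit of pyruvate dehydrogenase, 9.83 ± 0.060 and 9.55 ± 0.094 (-0.27, adjusted p = 0.151; SD, n = 3). These had opposite signs, each with groups that did not overlap. Of 15 glycolysis genes 0 passed (limma, 2 at an unadjusted p under 0.05), with 8 positive and 7 negative; Pfkm differed by -0.30 and Aldoc by -0.44. Among 9 related proteins that are not members, such as the phosphate carrier gene Slc25a3 (-0.099) and the ADP/ATP carrier gene Slc25a4 (0.12), 0 passed (limma, 0 at an unadjusted p under 0.05). Of 17 S phase and mitosis genes 0 passed (limma, 0 at an unadjusted p under 0.05), and their mean was 8.56, 8.36 and 8.45 on wild type arrays and 8.43, 8.30 and 9.05 on knockout arrays.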

How the data were processed

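Total RNA labelled with biotin was hybridised to 6 arrays in 1 colour. The deposited table holds log2 values. The submitters' processing notes name RMA, with settings not given in the sources used here. Of 22690 probe sets, 20380 had 1 gene symbol in the platform's annotation and were named from it; all 79 members were found in a RefSeq gene table. Of the 79 brightest probe sets, 8 end in _x_at and 10 in _s_at, which the platform gives to probes that may detect other transcripts. The test was limma 3.58.1 (R 4.3.3), lmFit followed by eBayes on 3 arrays against 3, with no filter and two-sided p-values, adjusted over 12393 genes (Benjamini-Hochberg) and called under 0.05. Intervals use limma's moderated degrees of freedom. Members and lists were chosen with earlier results of these data known. The genes named were Dnmt1, Foxp3, and in each complex the 3 members of lowest p, the brightest 2 and the dimmest, besides called members, restricted isoforms, c-ring genes and the 2 of lowest p in each related list. Others described, as Ndufs4, Ndufs7, Ndufv1, Ndufv2, Ndufb8, Ndufa4, Uqcrfs1, Uqcrc1, Cox8a, Cox7a2 and Atp5b, were chosen after their values were seen, for their role or values. The fit was tested on simulated data. Alternatives covered normalization, dim genes, probe sets, variance, a replicate block, a neutrophil covariate and each array left out. Figures used matplotlib 3.10.9 in Python 3.11.15.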

Additional observations from a re-analysis of the deposited data

How the results depend on the processing

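No member passed under any alternative except without knockout replicate 1, where 2 did (range with 1 array left out 0 to 2; complexes I and IV each 0 to 1). With 1 array left out, genes differing between knockout and wild type ran from 21 to 544 (genes differing between knockout and wild type, higher, 17 to 358; genes differing between knockout and wild type, lower, 3 to 186), where the main count was 236 (165 and 71). The lower count was 113 with trend and robust variance and 110 with array weights. Deviations of same-numbered arrays from their group means correlated at -0.082, 0.147 and -0.041 over genes. Wild type replicates 1 and 3 correlated best with another number, and wild type replicate 2 with knockout replicate 2. With 3 arrays in a group, such values cannot decide whether arrays of the same number were handled together. With the replicate block 147 genes were called (35 lower) and 0 members, and Mrps5 did not pass (limma adjusted p = 0.103). With the neutrophil covariate 15 were called (9 higher, 6 lower), and the median difference was 0.17 for the members and 0.20, 0.17, 0.21, 0.15 and 0.15 for complexes I to V. The complex IV median, 0.041 with all arrays, ran from -0.0059 to 0.060 with 1 array left out; cyclic loess turned the medians of complexes I, II, III and V positive (0.044, 0.013, 0.027 and 0.0070), by less than the spread between arrays, with that of all genes at 0.0098.

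Uncalled differences of single genes changed sign as follows; the cause was not tested. With cyclic loess: Atp5g1 0.0021, Uqcrq 0.0035, Atp5md 0.0070, Ndufa13 0.0078, Uqcrb 0.034, Uqcr11 0.035 and Sdhb 0.049. With median centring: Atp5h -0.0071, Ndufa1 -0.011 and Ndufb1 -0.027. With quantile normalization: Cox4i2 -0.0013, Ndufb1 -0.029 and Sdhb 0.0070. With array weights: Ndufb1 -0.021 and Uqcrb 0.0027. With probe sets averaged: Uqcrq 0.059. With the neutrophil covariate: Cox8c -0.11, Ndufb1 -0.18, Sdha 0.017, Atp5g1 0.048, Ndufa5 0.081, Ndufa13 0.087, Atp5md 0.10, Sdhc 0.15, Uqcrh 0.15, Cox4i1 0.16, Sdhb 0.19, Cox7a2l 0.23, Uqcr11 0.46, Uqcrq 0.46 and Uqcrc2 0.49. With 1 array left out, the ranges were -0.011 to 0.035 for Ndufa1, -0.086 to 0.11 for Ndufb1, -0.046 to 0.025 for Sdhb, -0.19 to 0.028 for Uqcrc2, -0.14 to 0.049 for Uqcrq, -0.062 to 0.055 for Uqcrb, -0.12 to 0.060 for Uqcr11, -0.13 to 0.045 for Cox7a1, -0.016 to 0.041 for Atp5h, -0.065 to 0.15 for Cox4i2, -0.065 to 0.13 for Cox6a2, -0.064 to 0.30 for Cox6b2, -0.0028 to 0.076 for Cox8c and -0.12 to 0.0015 for Atp5g1.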
